A study of Bos taurus with 17 samples.

Results

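MicroRNA abundance in whole milk was compared between Holstein and Normande cows aged 3 years. The comparison took 10 of the 17 libraries of the study, 5 of Holstein cows (H5 to H9) and 5 of Normande cows (N4 to N8), with 1 library per cow. All 10 cows were in their first lactation, about 2 months after calving, and were kept on the same farm under the same feeding. Milk came from the morning milking, was collected on the same occasion for both breeds of an age, and was not separated into fat, whey and cells before RNA isolation. Breed was given by the labels and age by the study's description of its animals. The 7 other cows, 4 Holstein and 3 Normande, were aged 2 years and served here as separate animals in which the same contrast could be read. They also entered a test across the ages and an alternative setting, each with all 17 libraries. Neither group was treated. The sequencing lane of each library was not given in the sources used here, so lane and breed could not be separated.

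MicroRNAs are short RNAs cut from hairpin precursors, whose strands are named the 5p and 3p arms. Loaded into Argonaute proteins, they pair with messenger RNAs and lower the output of their targets. Milk holds microRNAs released by the secretory epithelium of the mammary gland, in fat globules, extracellular vesicles and free protein complexes, and those carried by the leukocytes that enter milk. Holstein is a breed selected for milk volume and Normande one known for milk rich in fat and protein.

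The count table held 2297 mature microRNA entries, of which 2199 had at least 1 read in the 10 libraries and 98 had none. Entries were either annotated, with a name from miRBase or from the ruminant collection RumimiR (prefix Rum), or predicted, with a name that carries the chromosome of a hairpin proposed by the authors' software. The breed test covered the 454 entries whose largest normalized count passed a minimum, 331 annotated and 123 predicted. These held nearly all reads of each library, and the other 1745 entries with reads were too rare to be tested. Library totals ran from 6313331 to 21108285 reads, with a mean of 12595797 in Holstein and 10779170 in Normande. A single read therefore weighed 0.0474 to 0.158 RPM (reads scaled to a library of 1e6 reads), and 3 reads, the limit that a count of 0 allows, up to 0.475 RPM. Abundances below are RPM scaled by the trimmed mean of M-values (TMM), unless a share of reads is named or a value is said to be before TMM scaling. A log2 difference is Normande minus Holstein. No pair of libraries of a breed came close to being a copy of another, and nothing says that more than 1 sample was taken per cow. The p-values set a breed difference against the variation between cows.

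A total of 45 microRNAs (9.91% of those tested) differed between breeds at an adjusted p under 0.05 by edgeR. The 35 that were higher in Normande (7.71%) comprised 20 predicted and 15 annotated entries, and the 10 that were lower (2.2%) were all annotated. The difference was 2.23 to 5.82-fold in those higher in Normande, with a median of 2.98, and 1.58 to 8.50-fold in those lower, with a median of 2.21. The clearest single difference was bta-miR-375-3p, lower in Normande. Among those higher in Normande, 4 of 8 listed leukocyte entries (both arms of miR-142, miR-223 and miR-146a) and the pair miR-221 and miR-222 stood beside many predicted entries. The other listed leukocyte entries were not called, and bta-miR-342-3p among them had a negative log2 difference. Of the 45, 6 had an adjusted p under 0.04, and the other 39 shared one adjusted p of 0.0494, just inside the threshold. Before adjustment, 159 of the 454 had p under 0.05, 98 of them higher and 61 lower in Normande. The groups did not overlap for 32 of the 454 (7.05%), with Normande above in 14 (3.08%) and Holstein above in 18 (3.96%), and 19 of the 32 were among the 45.

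**Figure D1:**
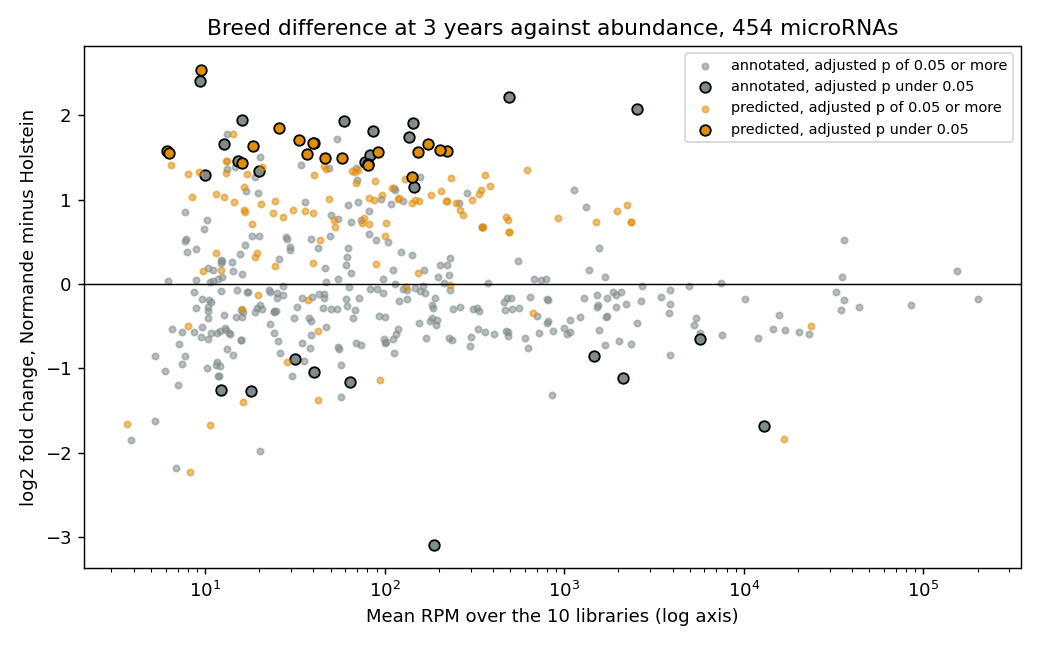
Log2 difference between breeds (Normande minus Holstein, vertical axis) against mean abundance over the 10 libraries (RPM before TMM scaling, log axis) for the 454 microRNAs tested. Outlined points are the 45 with an adjusted p under 0.05; orange marks predicted and grey annotated entries. The predicted entries lie mostly above 0, and 1 outlined point lies above 10000 RPM, bta-miR-375-3p at a log2 difference of -1.68.

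The number of calls depended on single cows. It fell to 7 or fewer without any 1 of H6, H7, H8, H9, N4, N5, N7 or N8, with 1 call without H9 and 2 without H8 or N5. Without H5 the test called 103 higher and 27 lower, and without N6 53 higher and 12 lower. All 45 kept their direction in each of these settings, but 1 of them, bta-miR-375-3p, passed the threshold in all 10, and 37 passed in 2 or fewer. Abundance varied more among Holstein cows, with a median within-breed SD of log2 abundance of 0.60 against 0.47, and the Holstein SD was the larger for 315 of 454 microRNAs.

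**Figure D2:**
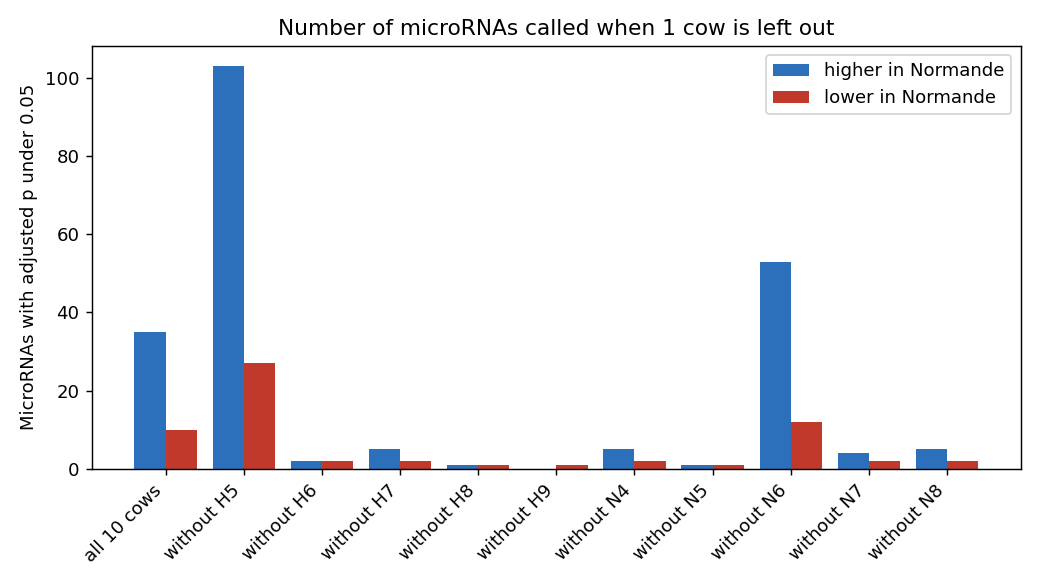
Number of microRNAs with an adjusted p under 0.05 (vertical axis) with all 10 cows and with each cow left out in turn, for those higher (blue) and lower (red) in Normande. The bars stand at 35 and 10 with all cows, reach 103 and 27 without H5, and drop to 0 and 1 without H9.

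The microRNA that differed most firmly was bta-miR-375-3p, known from pancreatic islets, where it restrains insulin secretion, and from other secretory epithelia. It was present at 18417, 17109, 25637, 15773 and 23595 RPM in H5 to H9, and at 6833, 3152.5, 7234, 6992 and 7115 RPM in N4 to N8. The lowest Holstein cow held far more than the highest Normande cow, and N5 lay below its own breed. The means were 20106 ± 4283 RPM in Holstein and 6265 ± 1746 RPM in Normande (SD, n = 5 each), a log2 difference of -1.68 ± 0.25 (SE, 95% interval -2.21 to -1.15, edgeR adjusted p = 0.00481). Leaving out any 1 cow gave adjusted p-values from 0.00242 to 0.0231, and the 10 other settings of scaling, filter, test and samples kept the call. Over all of these settings the log2 difference ran from -1.76 to -1.51. In the cows aged 2 years the log2 difference was -1.40.

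**Figure D3:**
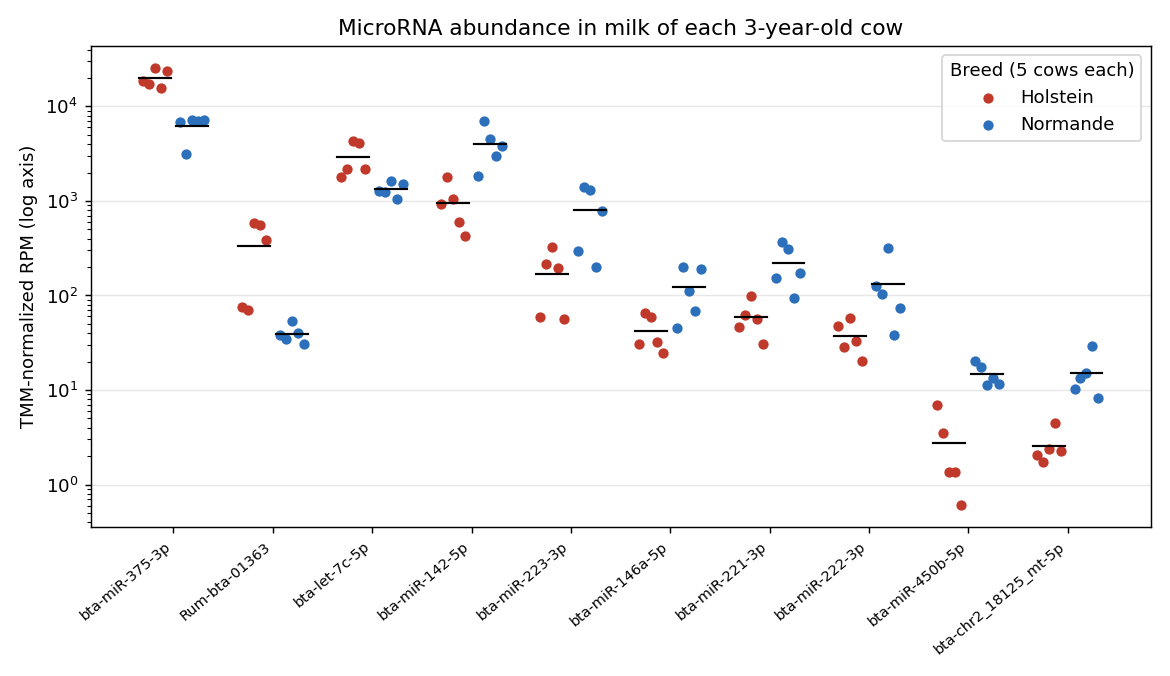
TMM-normalized abundance (RPM, log axis) of 10 microRNAs with an adjusted p under 0.05 in each 3-year-old cow, Holstein in red and Normande in blue, with bars at the group means (n = 5 each). The groups are apart for bta-miR-375-3p, Rum-bta-01363, bta-let-7c-5p, bta-miR-142-5p, bta-miR-450b-5p and bta-chr2_18125_mt-5p, and overlap for bta-miR-223-3p, bta-miR-146a-5p, bta-miR-221-3p and bta-miR-222-3p.

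The largest fold difference among the calls belonged to Rum-bta-01363, an entry known only from the RumimiR collection. Its abundance was 75.2, 70.4, 591, 557 and 388 RPM in H5 to H9 and 38.4, 34.6, 53.4, 40.5 and 31.0 RPM in N4 to N8. Every Holstein cow lay above every Normande cow, but H5 and H6 came close to the Normande range while H7, H8 and H9 were far above it. The log2 difference was -3.09 ± 0.58 (adjusted p = 0.0185), and the call was lost without H8, H9 or N5, with adjusted p-values up to 0.0922.

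The list of secretory epithelium markers held 8 measured members, and bta-miR-375-3p was the 1 called. The median log2 difference of the list was -0.23 against -0.04 over all 454, with 7 members negative, a count that was 5 when libraries were scaled by their total reads. The most abundant of them and of all milk microRNAs, bta-miR-148a-3p, long known as a leading milk microRNA, reached 217178 ± 63064 RPM in Holstein and 191324 ± 28103 RPM in Normande. Its log2 difference of -0.18 had a 95% interval of -0.59 to 0.23, which leaves room for a difference of either sign. The summed abundance of the 8 markers was 211628 to 293796 RPM in Holstein and 241843 to 276072 RPM in Normande before TMM scaling. Most of this sum was bta-miR-148a-3p, at a mean of 201026 RPM over the 10 libraries. Other members were far rarer, such as bta-miR-200b-3p at 262 RPM and bta-miR-205-5p at 38.8 RPM.

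The miR-200 family, which keeps epithelial cells epithelial by restraining the ZEB transcription factors, had no call among its 5 members (median log2 difference -0.17). Its most abundant member, bta-miR-141-3p, varied widely among Holstein cows, with 54698, 43110, 15560, 12369 and 22573 RPM in H5 to H9, against 29761 to 61645 RPM in Normande. The log2 difference of 0.52 had an interval of -0.27 to 1.31. As a share of all reads the family took 3.70 ± 1.64% in Holstein and 5.41 ± 1.47% in Normande, with overlap.

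Of 8 measured microRNAs of leukocytes, 4 were called higher in Normande, against 7.71% of all tested, and none lower. RLE factors and total reads called 3. With each scaling 7 had a positive log2 difference, and the median was 1.03 against -0.04 over all 454. In the cows aged 2 years 5 of the 8 were positive and 3 negative. Members of the list, such as miR-142-5p and miR-223-3p, had been singled out by the study on these same samples, so neither the count nor the summed level is independent evidence of direction. Summed over the list without TMM scaling, the abundance was 1332 to 2181 RPM in Holstein and 3220 to 10086 RPM in Normande, with no overlap. Most of this sum was bta-miR-142-5p, at a mean of 2538 RPM over the 10 libraries, with bta-miR-223-3p next at 489 RPM. The sums and the share below therefore mainly follow that 1 entry and do not describe the other members. With TMM factors the sums were 1276 to 2869 RPM and 2739 to 9386 RPM, and N4 fell below H6. The share of reads was 0.172 ± 0.0368% in Holstein and 0.605 ± 0.264% in Normande. In whole milk, more leukocytes and more of these microRNAs per leukocyte cannot be told apart from these counts. The study also measured somatic cell counts of the milk, which were not used here.

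The most abundant of the leukocyte group was bta-miR-142-5p, from a hairpin made in cells of the blood lineage. It was read at 936, 1778, 1047, 597 and 431 RPM in H5 to H9 and at 1816, 6964, 4538, 3015 and 3782 RPM in N4 to N8. The ranges met but did not cross, with H6 and N4 nearly equal and N5 the highest. The log2 difference was 2.07 ± 0.42 (adjusted p = 0.0243), and the call was lost without H8, H9 or N5, with adjusted p-values up to 0.0944. The other arm, bta-miR-142-3p, rested on far fewer reads and showed the same order of cows at the top. Its mean was 24.1 RPM in Holstein and 91.9 RPM in Normande, with a log2 difference of 1.93 ± 0.47 (adjusted p = 0.0494). In the cows aged 2 years the log2 differences were smaller, 0.92 for the 5p arm and 0.39 for the 3p arm.

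The neutrophil and monocyte microRNA bta-miR-223-3p stood at 59.1, 216, 327, 194 and 56.5 RPM in H5 to H9 and at 295, 1398, 1304, 198 and 777 RPM in N4 to N8. The groups overlapped, since N4 and N7 lay below H7, while N5, N6 and N8 were above every Holstein cow. Its log2 difference was 2.22 ± 0.62 (adjusted p = 0.0494), and in the cows aged 2 years it was 0.20. bta-miR-146a-5p, which damps inflammatory signalling downstream of Toll-like receptors and was chosen for naming after its values were seen, had 30.7, 65.8, 59.3, 32.5 and 24.4 RPM in Holstein. In Normande it had 44.9, 202, 110, 68.2 and 190 RPM, with N4 alone inside the Holstein range and a log2 difference of 1.53 ± 0.44 (adjusted p = 0.0494).

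The remaining leukocyte markers were not called. bta-miR-155-5p, induced in activated lymphocytes and macrophages, had a log2 difference of 0.52 (adjusted p = 0.200), and the lymphocyte microRNA bta-miR-150-5p one of 0.31. bta-miR-146b-5p had 0.23, and bta-miR-342-3p was the negative member at -0.43.

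**Figure D4:**
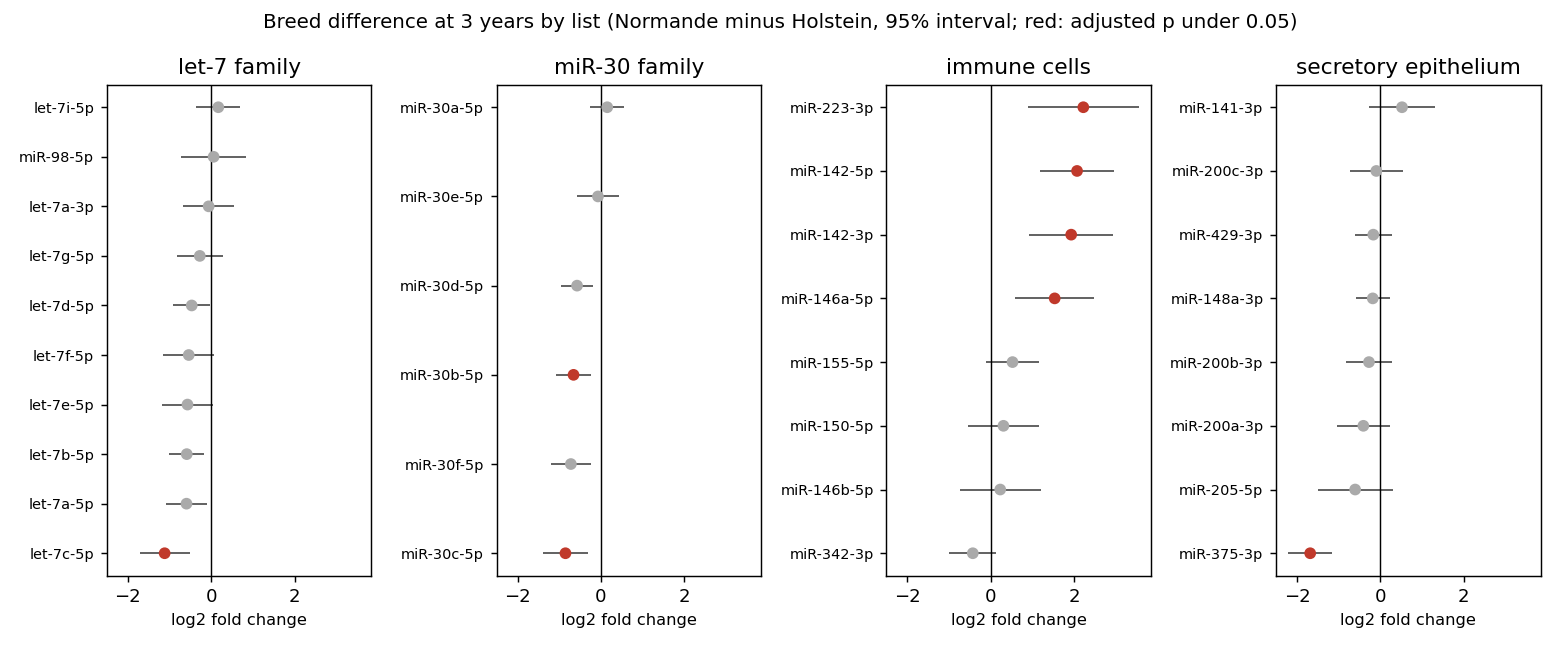
Log2 difference between breeds (horizontal axis, Normande minus Holstein) with its 95% interval for the tested members of the let-7 family, the miR-30 family, the immune cell list and the secretory epithelium list. Red points had an adjusted p under 0.05; 4 of 8 immune cell members lie at 1.53 or above, while let-7c-5p, miR-30b-5p, miR-30c-5p and miR-375-3p are the red points below 0.

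Among markers of other cells none was called. The red cell microRNA bta-miR-486-5p had a log2 difference of -0.81 and was not called, and the erythroid bta-miR-451-5p had 45 reads in all Holstein and 165 in all Normande libraries. The defining muscle microRNA in the table, miR-133a-3p, had 43 and 32 reads, and the liver marker miR-122 had no entry. Of 8 stroma and vessel markers with reads, 3 passed the filter. All 3 were negative with TMM factors and 2 of 3 with total reads, and none was called. They were led by bta-miR-143-3p of smooth muscle, at a mean of 623 RPM before TMM scaling, above miR-223-3p at 489 RPM. Also before TMM scaling, all 8 markers with reads summed to 530 to 1053 RPM in Holstein and 317 to 878 RPM in Normande. The part of these markers in the breed differences was not tested.

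Both members of the family of miR-221 and miR-222, which share a locus on the X chromosome and restrain the cell cycle inhibitor p27, were higher in Normande. bta-miR-221-3p was read at 46.0, 62.5, 98.3, 56.4 and 30.8 RPM in H5 to H9 and at 153, 370, 309, 95.2 and 173 RPM in N4 to N8. Only N7 fell below the highest Holstein cow, H7, and the log2 difference was 1.90 ± 0.41 (adjusted p = 0.0348). The call was lost without H6, H8, H9 or N5, with adjusted p-values up to 0.110. bta-miR-222-3p had 47.7, 28.4, 57.8, 32.9 and 20.3 RPM in Holstein and 127, 103, 317, 38.1 and 73.8 RPM in Normande, again with N7 alone inside the Holstein range, and a log2 difference of 1.81 ± 0.50 (adjusted p = 0.0494). The cows with much miR-221, N5 and N6, were also those with much miR-223. In the cows aged 2 years the differences were 1.37 and 1.93.

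Another microRNA of the X chromosome, bta-miR-450b-5p, was scarce in Holstein. It was read at 6.90, 3.48, 1.35, 1.36 and 0.607 RPM in H5 to H9 and at 20.2, 17.6, 11.4, 13.4 and 11.7 RPM in N4 to N8. The groups did not overlap, and the lowest value, in H9, rested on 4 reads. The means were 2.74 ± 2.56 and 14.9 ± 3.86 RPM and the log2 difference was 2.40 ± 0.56 (adjusted p = 0.0494).

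The let-7 family, which restrains growth genes such as those of the RAS family and is itself held back by LIN28, had 1 call among 10 members, lower in Normande, against 9.91% of all tested called in either direction. The median log2 difference was -0.50, with 8 members negative by TMM factors and 7 with total reads. The call was bta-let-7c-5p, at 1803, 2180, 4274, 4113 and 2202 RPM in H5 to H9 and 1285, 1230, 1634, 1046 and 1525 RPM in N4 to N8. The groups did not overlap, H7 and H8 were well above the other Holstein cows, and the log2 difference was -1.12 ± 0.28 (adjusted p = 0.0494). The abundant bta-let-7a-5p had a log2 difference of -0.59 (adjusted p = 0.0900), bta-let-7b-5p one of -0.59 (0.0650) and bta-let-7f-5p one of -0.54 (0.172). The family took 5.67 ± 1.23% of reads in Holstein and 4.38 ± 0.729% in Normande, with overlap. The call of let-7c-5p was lost with total reads, under which no member was called.

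Members of the miR-30 family did not all differ alike. Of 6 tested members, 5 had a negative log2 difference, a count that was 4 with total reads. Among the 5, bta-miR-30e-5p was near level at -0.07. Called were bta-miR-30c-5p (-0.85 ± 0.25) and bta-miR-30b-5p (-0.66 ± 0.20), both at an adjusted p of 0.0494, against 2.2% of all tested called lower. bta-miR-30d-5p, next to miR-30b in the genome, was read at 24566 ± 4456 RPM in Holstein and 16519 ± 2287 RPM in Normande without overlap, and its log2 difference of -0.57 missed the threshold (adjusted p = 0.0561). bta-miR-30a-5p, second in abundance of all, had 147096 ± 38532 RPM in Holstein and 163295 ± 24242 RPM in Normande, with a log2 difference of 0.15 and an interval of -0.25 to 0.55. miR-30a-5p supplied most of the family's reads. With TMM factors the 6 members summed to 186700 ± 43210 RPM in Holstein and 190406 ± 25978 RPM in Normande, whereas without scaling the family took 17.3 ± 1.81% of reads in Holstein and 20.1 ± 1.74% in Normande, so the size of the difference in the sum depended on the scaling. With other scaling factors neither member was called.

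Families without any call were miR-17/92, which drives proliferation in many tissues (11 members, median log2 difference -0.06), and miR-29 (4 members, -0.15). The miR-26 pair had -0.22, miR-181 -0.28 over 4 members, the family of miR-23, miR-24 and miR-27 -0.48 over 6 and the cluster of miR-182, miR-183 and miR-96 -0.48 over 3. Members of the last 4 of these were all negative with TMM factors, and with total reads 1 member of miR-26 and 1 of miR-181 turned positive. In the X-linked miR-532/660 cluster 6 of 8 were negative (4 of 7 with total reads), led by bta-miR-660-5p at 14617 ± 3771 RPM in Holstein and 9351 ± 1367 RPM in Normande. Its log2 difference was -0.64 (adjusted p = 0.0593).

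The 19 microRNAs that averaged at least 10000 RPM before TMM scaling made up most of the milk miRNome in both breeds. They held 82.8 ± 2.28% of reads in Holstein and 82.2 ± 0.954% in Normande (exact permutation p = 0.532). bta-miR-375-3p was the 1 called among them, in the direction of the 16 of 19 with a negative log2 difference (13 with total reads). bta-miR-22-3p, ranking next after miR-148a-3p and miR-30a-5p, averaged 92566 ± 16276 RPM in Holstein and 78169 ± 5709 RPM in Normande, a log2 difference of -0.24 with an interval of -0.56 to 0.08. bta-miR-21-5p was close to level at 0.08 (interval -0.28 to 0.44). The predicted bta-chr20_18762_mt-3p was the most uneven of them, at 7483, 2782, 54450, 48762 and 15304 RPM in H5 to H9 and 5970, 10705, 8443, 6433 and 4599 RPM in N4 to N8. H7 and H8 exceeded all other cows by far while H6 was the lowest of all 10, and the log2 difference of -1.83 was not called (adjusted p = 0.0668).

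Most predicted microRNAs tested had a positive log2 difference, but their summed share of reads did not go the same way. Of the 123 tested, 17 had a negative log2 difference (13 with total reads), and the median was 0.98. Of the 331 annotated entries 217 were negative (170 of 325 with total reads), and the median was -0.19. In the cows aged 2 years, 17 of the 123 predicted and 235 of the 331 annotated entries were negative, with medians of 1.11 and -0.35. The predicted entries are hairpins proposed by software and were not shown here to be microRNAs. Some had nearly the same reads, such as the uncalled bta-chr22_21363_mt-5p and bta-chr8_36952_mt-5p, with 132 and 126 in H5 and 336 and 337 in N5. The counts of predicted entries above may therefore count some reads more than once. All 1104 predicted entries of the table together took 6.83 ± 2.41% of reads in Holstein and 6.09 ± 1.48% in Normande (two-sided exact permutation test, p = 0.595, also 0.595 after adjustment over 8 shares). The 2 entries above 10000 RPM, both with a negative log2 difference, held most of that share in Holstein. Without them the predicted entries took 1.69 ± 0.792% of reads in Holstein and 3.19 ± 1.39% in Normande, given as a description. Per cow this was 2.76, 1.08, 0.989, 2.29 and 1.32% in H5 to H9 and 2.26, 2.94, 1.60, 4.15 and 5.01% in N4 to N8, so the groups overlapped, with N4 and N6 below H5 and H8.

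The 20 predicted entries called higher in Normande differed 2.41 to 5.82-fold and averaged 6.10 to 223 RPM before TMM scaling. In 9 of them the groups did not overlap, against 14 of all 454 tested (3.08%) with Normande above. That count is no separate evidence, since the 20 were picked by p from the same values. Their levels followed each other across the cows. H5 was the highest Holstein cow for 18 of 20 and N6 the lowest Normande cow for 17 of 20, and summed they came to 1297, 407, 399, 783 and 743 RPM in H5 to H9 and 1642, 2451, 1093, 2705 and 2715 RPM in N4 to N8. In 3 pairs of entries with different names the read counts were nearly identical in every library (within 10% or 3 reads), such as bta-chr2_17130_mt-5p and bta-chr29_27330_mt-5p, whose reads cannot be told apart, so that the 20 entries amount to 17 distinct profiles and the 45 calls to 42. With all 10 cows, RLE factors called 13 predicted entries, total reads 2, TMM factors from annotated entries 8, and voom and limma 28. In the same settings 10, 6, 13 and 20 annotated entries were called higher.

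Among the predicted entries bta-chr2_18125_mt-5p stood out. It was read at 2.07, 1.74, 2.36, 4.46 and 2.28 RPM in H5 to H9 and at 10.2, 13.5, 15.0, 29.4 and 8.28 RPM in N4 to N8. The groups did not overlap and H8 was the highest Holstein cow. The log2 difference was 2.54 ± 0.44 (adjusted p = 0.0127), and the call was lost only without H9 (adjusted p = 0.0517). bta-chr18_13683_mt-5p rose from a mean of 10.6 RPM in Holstein to 38.2 RPM in Normande, also without overlap (1.85 ± 0.38, adjusted p = 0.0243).

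The other calls were rarer microRNAs at the shared adjusted p of 0.0494. Lower in Normande were mmu-miR-210-5p, whose hairpin is induced by low oxygen (-1.26 ± 0.33), bta-miR-1260b-5p (-1.26 ± 0.33), bta-miR-11978-5p (-1.17 ± 0.35), Rum-bta-01890 (-1.05 ± 0.28) and bta-miR-328-3p (-0.89 ± 0.26). Higher in Normande were Rum-oar-04889 (1.94 ± 0.53), Rum-bta-00054 (1.74 ± 0.52), bta-miR-1388-3p (1.66 ± 0.47) and bta-miR-2299-5p (1.46 ± 0.38). The same held for Rum-oar-00936 in its second entry (1.44 ± 0.41), bta-miR-11987-5p (1.34 ± 0.33), bta-miR-147-3p (1.29 ± 0.38) and Rum-bta-01125 (1.15 ± 0.32). bta-miR-2887-5p (1.08, adjusted p = 0.0650) and bta-miR-11976-3p (1.26, adjusted p = 0.0593), both named by the study for breed, were not called.

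The ratio of 2 microRNAs within a library needs no scaling factor, and 3 such ratios were taken between microRNAs already chosen for their differences, as a description. bta-miR-375-3p exceeded bta-miR-142-5p by a log2 ratio of 4.54 ± 0.901 in Holstein (3.27 to 5.78) and 0.71 ± 1.14 in Normande (-1.14 to 1.91), a mean of 23.2-fold against 1.64-fold. N5 was the cow in which miR-142-5p outnumbered miR-375-3p. Against bta-miR-221-3p, the log2 ratio of miR-375-3p was 8.49 ± 0.654 in Holstein and 4.93 ± 1.19 in Normande. The log2 ratio of bta-miR-660-5p to bta-miR-142-5p was 4.06 ± 1.01 in Holstein (2.47 to 5.07) and 1.34 ± 0.908 in Normande (0.09 to 2.51), where H6 fell below N4. In the cows aged 2 years the first ratio was 3.52 ± 1.87 in 4 Holstein and 1.28 ± 0.718 in 3 Normande cows, with overlap.

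The 7 cows aged 2 years share no library with the contrast, and were fitted alone on the same 454 microRNAs. There, 0 of 454 were called (0%), 84 had an unadjusted p under 0.05, and 24 of the 45 microRNAs called at 3 years were among these. The shallowest libraries of the study are of this age, and they also entered the test of all 17 libraries below. How far depth or the number of cows limited the calls was not tested. The log2 difference had the same sign for 44 of the 45, against 370 of all 454 (81.5%). The exception was bta-miR-11978-5p, at -1.17 at 3 years and 0.34 at 2 years. A test of the difference between the breed contrasts of the ages used all 17 libraries and their own filter, which by coincidence also kept 454 microRNAs, 438 of them tested at 3 years and all 45 calls included. It called 0 of 454 (0%, edgeR, 15 with an unadjusted p under 0.05, lowest adjusted p 0.991, and 0 by voom and limma). The smallest unadjusted edgeR p-values belonged to the predicted bta-chr20_18779_mt-5p (0.00677, log2 difference of differences -6.43) and to the red cell microRNA bta-miR-486-5p (0.00944, -2.28).

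**Figure D5:**
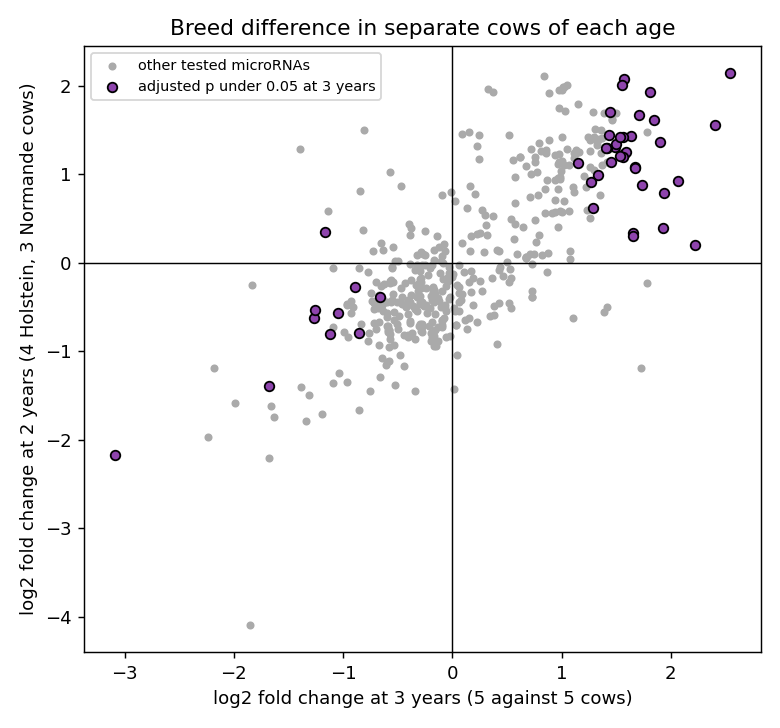
Log2 difference between breeds (Normande minus Holstein) in the cows aged 3 years (horizontal axis, 5 against 5) and in the separate cows aged 2 years (vertical axis, 4 Holstein against 3 Normande), 1 point per microRNA tested. Purple points are the 45 called at 3 years; 44 of them lie in the quadrants of equal sign.

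The breeds did not differ detectably in the number of microRNAs found. With every library thinned to the reads of the shallowest, 1228 ± 76.6 entries had a read in Holstein and 1245 ± 78.8 in Normande (exact permutation p = 0.738). Over all reads, 1626 entries were found in both breeds, 314 in Holstein alone and 259 in Normande alone. Breed-restricted entries were rare ones: 245 of the 314 and 180 of the 259 came from 1 library, none was present in all 5 libraries of a breed and absent from the other, and the largest had 53 reads (Rum-bta-01389, Holstein) and 29 reads (bta-chr23_22193_mt-5p, Normande).

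Arm usage was compared as the log2 ratio of 5p to 3p reads in 29 hairpins with enough reads in both arms. By limma 0 of 29 were called (0%), 3 had an unadjusted p under 0.05 and the lowest adjusted p was 0.0678. The groups were apart for 2 of 29 (6.9%). In miR-2299 the mean log2 ratio was 2.69 in Holstein and 4.67 in Normande (difference 1.98 ± 0.58), and in miR-2320 it was 0.52 and -1.82 (difference -2.35 ± 0.70). Both rest on arms with few reads, such as a mean of 14.7 for miR-2299-3p and 14.2 for the 5p arm of miR-2320. The strongly read let-7a hairpin had a difference of -0.50 and miR-423 one of 0.35.

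When the tested microRNAs were summarised by principal components of log2 abundance, the leading component carried 50.1% of the variance and the next one 14.0%. In the plane of both, 51.7% of the squared distances lay between the breeds (one-sided exact permutation p = 0.0159). On the first component H6 to H9 scored 4.55 to 18.2, and N4, N5, N7 and N8 scored -14.3 to -4.77. H5 (-3.60) and N6 (1.08) lay between these ranges, H5 close to the Normande one. These were also the cows without which more microRNAs were called.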

How the data were processed

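After RNA isolation from whole milk with the RNA NOW kit and TruSeq small RNA preparation, the authors quantified reads of each mature microRNA with miRDeep2 on bosTau8. The submitters' processing notes name bcl2fastq 2.17.1.14 and cutadapt. The deposited values are raw counts per microRNA, not normalized. Breed came from the labels and age from the study's description of its animals. Where a name was repeated, its entries stayed apart and were numbered.

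Counts of the 10 libraries were tested with edgeR 4.0.16 in R 4.3.3 (TMM factors, quasi-likelihood F test, two-sided, Benjamini-Hochberg adjustment over all microRNAs tested) when the largest TMM-normalized count exceeded the study's published minimum for breed. Arm ratios used limma 3.58.1 on log2 counts with a pseudocount of 0.5 where both arms averaged at least 10 reads. Shares of all major and all predicted entries and detection (thinned to 6313331 reads) used two-sided exact permutation tests, taking every division of the cows into groups of 5. For edgeR, the SE was the absolute log2 difference divided by the square root of the F statistic. Intervals at the 95% level were built from that SE. Floors of 3 reads cover counting error only. DESeq2 1.42.0, voom, other factors and filters, a replicate block and leaving out each cow were alternatives. Python 3.11.15, numpy 2.4.6, pandas 2.3.3 and matplotlib 3.10.9 were used. The edgeR breed fit and a limma fit of ratios were checked on simulated data, in which entries varied independently. The permutation tests and the test across the ages were not checked in this way. Neighbouring genes came from RefSeq ARS-UCD2.0 (228 of 234 bovine names matched).

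MicroRNAs were named from those of at least 10000 RPM and the 10 largest calls in each direction with a read in every library of the higher breed. Further sources were those the study named for breed, up to 4 leading members of each list, and the 5 smallest p-values for arms and for age dependence. Not every member of these sets is given in the text. The remaining calls were added after their values were seen. Members and lists were chosen with earlier results of these data known. Same-numbered cows of the breeds were not paired (1 of 4 correlated best with its own number).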

Additional observations from a re-analysis of the deposited data

Results flagged for a closer look

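In 174 groups of 5 cows looked at, 9 had 1 cow far from the other 4, judged by its gap to the nearest cow divided by the range of the group (limit 0.71). Chance gives about 1 such group in 20. In Normande, bta-miR-375-3p was low in N5 (gap 0.902 of the range, 3152.5 RPM against 6833 to 7234 RPM), and N6 was high for bta-miR-181a-5p (0.782, 42959 RPM against 27492 to 30864 RPM) and bta-miR-182-5p (0.815, 7413 RPM against 5542 to 5887 RPM). In Holstein, H5 was low for bta-miR-30c-5p (0.780, 1092 RPM against 1950 to 2192 RPM) and bta-miR-30f-5p (0.739, 1277 RPM against 2183 to 2504 RPM). H6 was low for bta-miR-532-5p (0.785, 1226 RPM against 1694 to 1822 RPM) and high for bta-miR-23b-3p (0.828, 1470 RPM against 689 to 824 RPM). H9 was high for bta-miR-200a-3p (0.887, 11997 RPM against 4133 to 5024 RPM), and H8 for bta-chr2_18125_mt-5p (0.772, 4.46 RPM against 1.74 to 2.36 RPM).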

How the results depend on the processing

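With 35 microRNAs called higher and 10 lower in Normande, other choices gave 23 and 6 (RLE factors), 8 and 2 (total reads), 21 and 3 (TMM factors from annotated microRNAs), 7 and 3 (filterByExpr, 714 tested), 91 and 29 (no filter, 2199 tested), 14 and 3 (all 17 libraries) and 39 and 12 (threshold on raw counts). Voom with limma gave 48 and 19, with quality weights 69 and 33, and DESeq2 69 and 39. DESeq2 called all 45, voom and limma 43, and total reads 10 of them. Leaving out 1 cow gave 0 to 103 higher and 1 to 27 lower. The replicate block on the 4 pairs of cows that share a number gave 4 and 1, and the same 8 cows without the block 1 and 1, a setting chosen after seeing the data. The block changed these counts with fewer cows in the fit, and the numbers do not pair the cows. All 45 kept their direction in every setting, and 5 kept their call in the 10 settings that used all cows or more.

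Scaling moved the median log2 difference of all microRNAs from -0.04 (TMM) to -0.09 (RLE), 0.14 (total reads) and 0.13 (annotated). For arm ratios, a pseudocount of 5 gave 2 calls, and leaving out 1 cow 0 to 1. With 1 cow left out, the logit difference of the miR-30 share ranged from 0.147 to 0.234, of miR-200 from 0.304 to 0.599 and of stroma and vessels from -0.545 to -0.290, values whose permutation p lies on both sides of 0.05 (0.0159 to 0.0873, 0.0317 to 0.254 and 0.0317 to 0.167). The lists were chosen with earlier results known, so these p-values support nothing. The cause of these changes was not tested. The shallowest of the 10 libraries of cows aged 3 years held 6313331 reads, and what depth or number of cows limits was not compared.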
